A study of Mus musculus with 9 samples.

Results

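The genes described here encode the presynaptic machinery that docks, primes and fuses synaptic vesicles. The set was given by name and holds 35 genes of the 25239 gene names listed for each library. All 35 were among the 15198 genes tested. They were compared in bulk RNA-Seq of whole retinas taken from C57BL/6J mice at postnatal day 42 (P42), with the pair of retinas of 1 mouse in each library. The 3 genotypes were +/+ (wild-type), Cre/+ (Rbpms-CreERT2/+) and Cre/Cre (Rbpms-CreERT2/CreERT2), with 3 mice each. The series' design states that the +/+ controls came from the same litters, but which mice were littermates is not given, so litter is in no test. In the knock-in allele, a P2A-CreERT2 cassette follows the coding sequence of the endogenous Rbpms gene, so that the Rbpms locus itself drives the recombinase. No reporter, floxed allele or inducing agent is named for these mice. The comparison asks whether the allele alters the retinal transcriptome, and here it is made for the genes of transmitter release.

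Vesicle fusion rests on the SNARE complex, in which a vesicle protein (VAMP) zips together with 2 plasma membrane proteins (a syntaxin and SNAP-25). Synaptotagmins sense calcium, complexins clamp and then promote fusion, UNC13 and RIM proteins prime vesicles at the active zone, and NSF with its SNAP adaptors takes spent complexes apart. Photoreceptors and bipolar cells release glutamate at ribbon synapses, which use syntaxin 3 and complexins 3 and 4 and lack synapsins. Amacrine cells form conventional synapses with syntaxin 1A, complexins 1 and 2 and synapsins, while ganglion cells send their own release sites to the brain. The gene set therefore holds 3 ribbon-type isoforms (Stx3, Cplx3 and Cplx4), 6 conventional isoforms (Stx1a, Cplx1, Cplx2, Syn1, Syn2 and Syn3) and 26 genes assigned to neither type. Complexin 3 is also found in some amacrine cells, so the division is one of isoform names, not of cell types.

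Values are TPM, a relative transcript abundance from the authors' quantification, in which a gene's reads are divided by its length and each library is scaled to the same total. The depth behind the libraries was even, at 4.05 to 4.65 aligned gigabases, as far as the deposited coverage and FPKM show it. In the Cre/Cre replicate 1 library, the ribosomal RNA transcript Rn45s took 9.21% of all TPM, against 0.0827% to 0.336% in the other 8 libraries. The same library had the lowest TPM of all 9 libraries for 29 of the 35 genes. Medians, counts at an unadjusted p and named differences of the 35 genes are therefore given also without it where it takes part. Counts of genes without overlap, and named differences of genes outside the set, are given with all libraries. Xist, which silences an X chromosome in female cells, was at 2.08 to 3.16 TPM in Cre/+ replicate 3 and Cre/Cre replicates 1 and 3, and at 516 to 585 TPM in the other 6 libraries, which include all 3 +/+ libraries. The markers of retinal cells were present throughout. The 7 photoreceptor markers summed to between 39407 and 48042 TPM, the 7 bipolar markers to between 1206.5 and 1623 TPM and the 9 amacrine markers to between 1188 and 1427 TPM. Rbpms itself was at 38.4 to 43.4 TPM in +/+, 31.3 to 33.1 TPM in Cre/+ and 19.1 to 24.2 TPM in Cre/Cre libraries. The 10 ganglion cell markers, which include Rbpms, summed to 1819 to 1902 TPM in +/+, 1711 to 1774.5 TPM in Cre/+ and 1324 to 1585 TPM in Cre/Cre libraries, so that the sums did not overlap. Not every marker followed the sum. Between Cre/+ and +/+, Pou4f1, Slc17a6, Nefl, Nefm and Nefh overlapped, while Thy1, Pou4f2, Sncg, Tubb3 and Rbpms lay lower in Cre/+ without overlap. Between Cre/Cre and +/+, Slc17a6 and Nefm overlapped and the other markers lay lower in Cre/Cre. In RNA of whole retinas, fewer cells of a type and less RNA per cell cannot be told apart. The original study counted RBPMS+ and POU4F1+ cells in whole-mount retinas of the same genotypes and reported no significant difference. Those counts were not used here.

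In wild-type retinas the fusion genes of the set were among the more abundant transcripts. The set was chosen with earlier results of these data known, so its levels do not stand for all genes of these families. By mean TPM, 4 of the 35 lay at or above 1000 TPM, 18 lay between 100 and 1000 TPM, 13 lay between 10 and 100 TPM and 0 lay under 10 TPM. Over all 9 libraries, 21 of the 35 were in the highest 10% of the genes tested. Snap25, the plasma membrane SNARE that contributes 2 helices to the complex, led the set by TPM with 2051 ± 95.8 TPM (SD, n = 3) in +/+ retinas. This rank depends on the transcript length used, since its deposited coverage was 4.36% to 4.38% of what FPKM and depth give, and by coverage Snap25 was number 19 of the 35 and Syp led. Its values were 2158.5, 2022 and 1974 TPM in +/+, 2104, 2097 and 2154 TPM in Cre/+, and 1705, 2014 and 2075 TPM in Cre/Cre libraries. The 3 genotypes thus differed by little beside the low value of Cre/Cre replicate 1. Syp, which encodes synaptophysin, an abundant vesicle membrane protein, followed at 1503 ± 58.9 TPM (SD, n = 3). Vamp2 (synaptobrevin 2), the main vesicle SNARE, stood at 1001 ± 9.50 TPM (SD, n = 3). Syt1, the fast calcium sensor, stood at 888 ± 31.6 TPM (SD, n = 3).

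**Figure D1:**
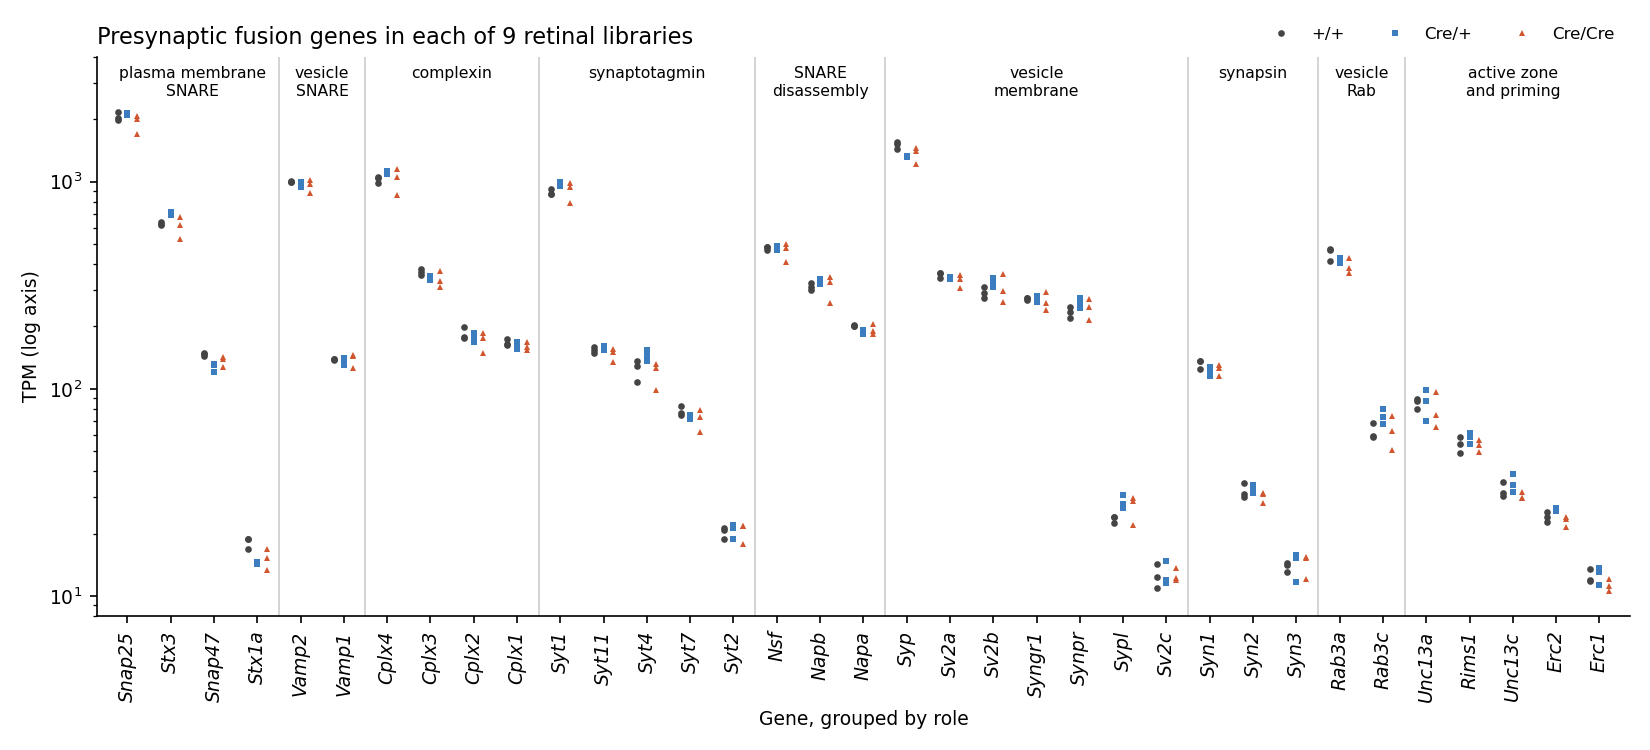
TPM of the 35 presynaptic fusion genes (log axis), grouped by role, with 1 point for each library (circles +/+, squares Cre/+, triangles Cre/Cre; 3 mice each). In +/+ retinas the means run from 12.4 TPM (Erc1) to 2051 TPM (Snap25), and within most genes the lowest point is the Cre/Cre replicate 1 library.

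Among the syntaxins, the ribbon-type member far exceeded the conventional one. Stx3 was at 636.5, 627 and 615.5 TPM in the 3 +/+ libraries, and Stx1a was at 18.8, 16.8 and 18.8 TPM. The mean ratio of Stx3 to Stx1a TPM was 34.6 ± 2.38 (SD, n = 3). A comparison of levels between genes also depends on the transcript length used. For Stx3, the deposited coverage was 35.7% to 36.2% of what its FPKM and the depth of the library give, in every library, and the ratio of Stx3 to Stx1a taken from coverage was 13.5 in +/+ retinas. The size of the Stx3 excess over Stx1a is therefore uncertain. Such a factor stays nearly constant for a gene across libraries and cancels in a comparison of genotypes.

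The start regions of the 2 syntaxin genes are shown because, by TPM, this pair differed more than any ribbon-type and conventional complexin. The windows are RefSeq reference sequence on GRCm38.p6 and run from 250 bases before to 50 bases after the annotated start of transcription. Stx3 lies on chromosome 19 (mm10, 11775118 to 11819403, minus strand) and its window is chr19:11819354-11819653. Stx1a lies on chromosome 5 (135023482 to 135051100, plus strand) and its window is chr5:135023232-135023531. Both are printed 5′ to 3′ on the strand of the gene, and capitals mark TAATCC, the core letters bound by the photoreceptor and bipolar cell factors CRX and OTX2, and GGGCGG, the GC box bound by SP1, each searched on both strands.
Stx3: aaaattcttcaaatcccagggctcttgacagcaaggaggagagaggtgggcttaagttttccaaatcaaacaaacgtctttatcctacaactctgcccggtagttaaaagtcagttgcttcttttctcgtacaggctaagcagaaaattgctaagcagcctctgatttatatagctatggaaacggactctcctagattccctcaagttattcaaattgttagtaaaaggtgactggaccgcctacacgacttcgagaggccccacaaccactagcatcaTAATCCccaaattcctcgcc
Stx1a: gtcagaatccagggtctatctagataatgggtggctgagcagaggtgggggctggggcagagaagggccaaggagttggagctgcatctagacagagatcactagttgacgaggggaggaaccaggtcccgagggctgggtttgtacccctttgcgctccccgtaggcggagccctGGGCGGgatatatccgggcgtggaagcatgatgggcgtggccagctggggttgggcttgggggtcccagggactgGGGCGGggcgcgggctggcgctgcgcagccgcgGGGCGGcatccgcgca
The Stx3 window had 44.0% G or C, 1 TAATCC and 0 GGGCGG, and the Stx1a window had 66.3% G or C, 0 TAATCC and 3 GGGCGG. Windows were found for 29 of the 35 genes, 38 windows in all, since some genes have several starts. TAATCC was in 10.5% of these windows (of Stx3, Sv2b and Syp), against 7.06% of all 32851 windows. GGGCGG was in 65.8% of them, against 35.7% of all windows, and the median G or C content was 62.5% against 52.7%. Cplx3 (chr9:57606232-57606531, 62.7% G or C) had neither motif and Cplx1 (chr5:108549978-108550277, 67.0%) had 2 GGGCGG. A match of letters is a description of the window and shows no binding.

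The complexins gave the same order of isoform types. In +/+ retinas, Cplx4 was at 1057, 1046 and 981 TPM and Cplx3 at 365, 377 and 353 TPM, while Cplx2 was at 198, 178 and 175 TPM and Cplx1 at 163, 164 and 174 TPM. Every library of either ribbon-type gene exceeded every library of either conventional gene. Cplx4 made up 59.0% of the complexin TPM, Cplx3 20.9%, Cplx2 10.5% and Cplx1 9.59%, and by coverage Cplx1 (10.2%) stood above Cplx2 (4.37%). The joint share of Cplx3 and Cplx4 was 79.9% ± 0.680 (SD, n = 3) by TPM and 85.4% by coverage. The 3 ribbon-type isoforms together reached 2019 ± 60.6 TPM and the 6 conventional isoforms 547 ± 16.6 TPM (SD, n = 3), a ratio of 3.69 ± 0.179. The synapsins, which tether vesicles in the reserve pool of conventional terminals, were the lower part of the conventional sum with 179 ± 8.43 TPM. Syn1 made up 74.3% of synapsin TPM, Syn2 17.9% and Syn3 7.79%.

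**Figure D2:**
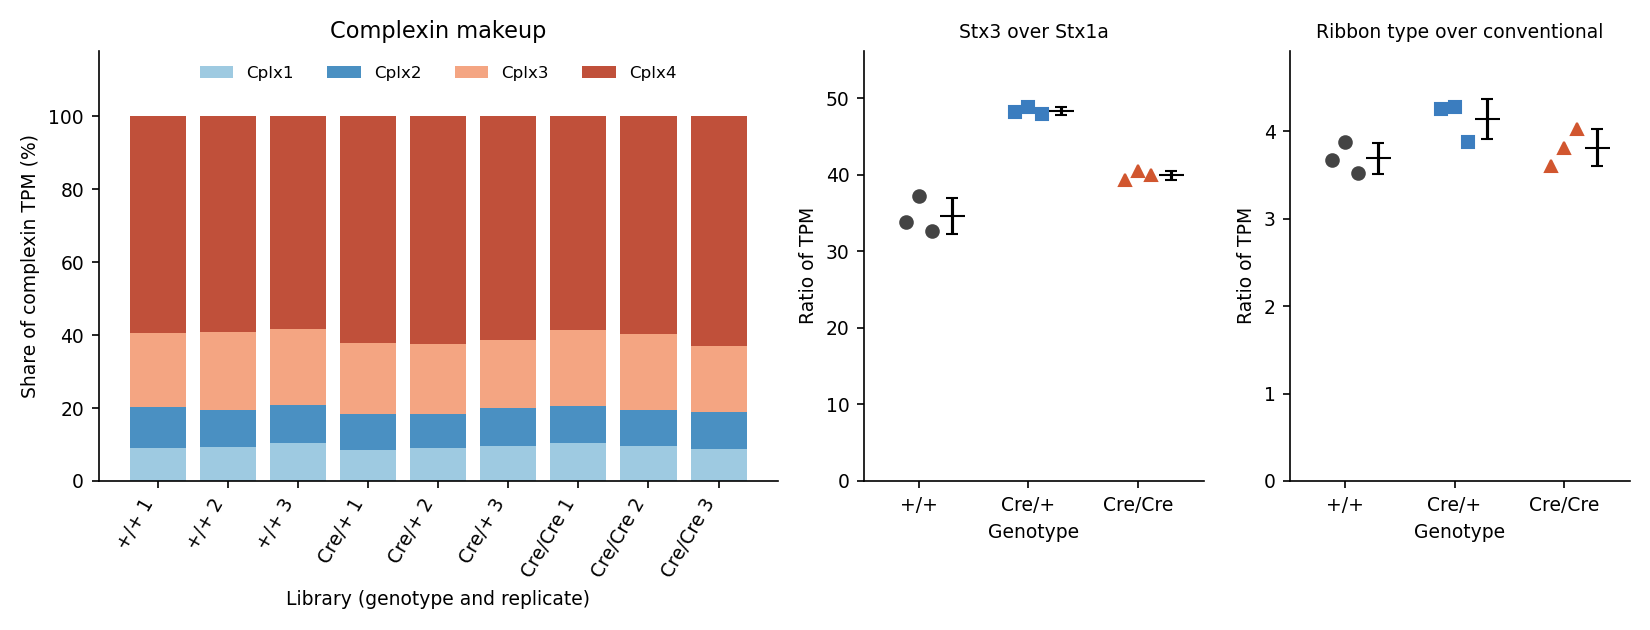
Left, share of each complexin in the summed complexin TPM of each library (%). Middle and right, ratio of Stx3 to Stx1a TPM and of the 3 ribbon-type to the 6 conventional isoforms, with 1 point for each library and mean ± SD beside them (n = 3). Cplx3 and Cplx4 hold 79.3% to 81.7% of the complexin TPM in every library, and the Stx3 to Stx1a ratio is 32.7 to 37.2 in +/+, 47.9 to 48.9 in Cre/+ and 39.3 to 40.4 in Cre/Cre.

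In several other families, 1 paralog dominated. Vamp2 held 87.8% of the TPM of Vamp1 and Vamp2, and Rab3a, a vesicle GTPase that binds RIM proteins, 87.8% of the TPM of Rab3a and Rab3c, and by coverage the shares were 88.6% and 87.9%. Snap25 held 93.3% of the TPM of Snap25 and Snap47 but 38.0% by coverage, so that the order of this pair turned. Syp held 85.3% beside its relatives Synpr (13.3%) and Sypl (1.34%), and 97.6% by coverage. Syt1 held 70.3% of the 5 synaptotagmins, followed by Syt11 at 12.2%, Syt4 at 9.80% and Syt7, a high-affinity sensor of slower release, at 6.18%. Syt2 was at 1.61% by TPM and at 0.312% by coverage, which gave the same order of the family. The SV2 family, glycoproteins of the vesicle membrane, was shared by TPM between Sv2a (54.0%) and Sv2b (44.1%), with Sv2c at 1.90%. By coverage Sv2a held 91.9% and Sv2b 4.88%, so that the part of Sv2b is uncertain. Of the SNARE disassembly genes, the ATPase gene Nsf was at 479 ± 10.7 TPM (SD, n = 3), and the brain-enriched adaptor Napb (60.7% of the adaptor TPM) exceeded Napa. Unc13a, the main vesicle priming gene of the set, was at 85.6 ± 5.05 TPM (SD, n = 3) and Unc13c at 32.4 ± 2.74 TPM. Unc13b, which is outside the set, was higher than both at 198 ± 9.62 TPM and made up 62.7% of the 3 genes. The active zone genes Rims1 (53.9 ± 4.92 TPM), Erc2 (24.2 ± 1.31 TPM) and Erc1 (12.4 ± 0.985 TPM) were low beside the vesicle genes. Coverage and FPKM agreed within 5% for 20 of the 35 genes and departed further for 15, most of all Snap25, Synpr and Sv2b.

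The spread between libraries was small. Over all 9 libraries, the coefficient of variation of the 35 genes had a median of 7.70% and ran from 4.07% to 13.9%. The median over the 10867 tested genes that averaged 10 TPM or more was 8.49%.

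No gene of the set passed the test for a difference between genotypes. With limma on log2(TPM + 1) and Benjamini-Hochberg adjustment over all genes tested, 0 of 35 passed an adjusted p of 0.05 in any of the 3 comparisons. The background was 0.00658% of all genes in Cre/+ against +/+, 0.00658% in Cre/Cre against +/+ and 0.0132% in Cre/Cre against Cre/+, so that few genes of any kind passed. The smallest adjusted p in the set was 0.39 for Cre/+ against +/+, 0.656 for Cre/Cre against +/+ and 0.74 for Cre/Cre against Cre/+. The intervals bound the differences. For all 35 genes and all 3 comparisons, the 95% interval of the fold change, computed for each gene on its own, lay within 1.5-fold in either direction. Its outermost limits were 0.687-fold (Stx1a) and 1.41-fold (Rab3c) in Cre/+ against +/+, 0.717-fold (Stx1a) and 1.32-fold (Sypl) in Cre/Cre against +/+, and 0.694-fold (Syt4) and 1.22-fold (Stx1a) in Cre/Cre against Cre/+. A fold change of 2, the limit of the original study, was outside every interval.

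**Figure D3:**
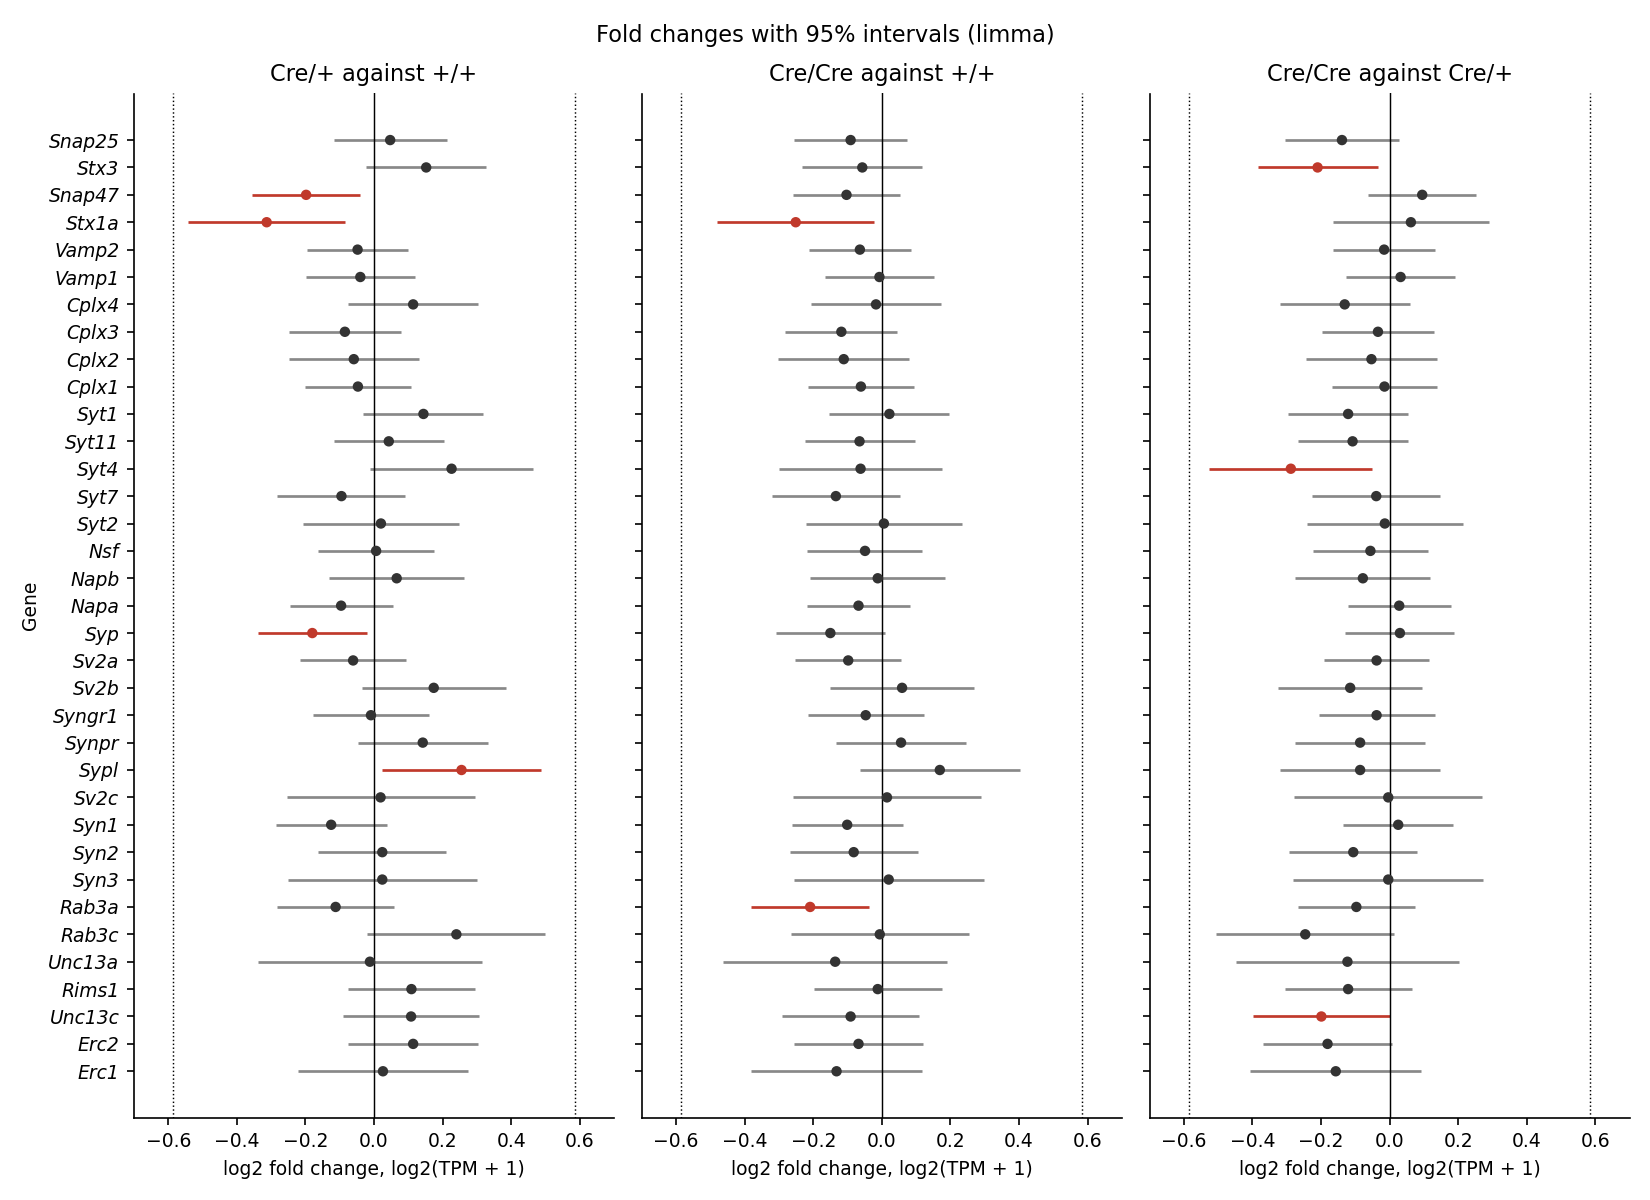
Log2 fold changes of the 35 genes in 3 comparisons of genotypes (points) with 95% intervals from limma (lines, n = 3 mice a genotype), on log2(TPM + 1). Dotted lines stand at 1.5-fold, and red marks an unadjusted p under 0.05, which 4, 2 and 3 genes reach, while 0 genes pass after adjustment.

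In Cre/+ against +/+ retinas, 1 of 35 genes was higher and 3 were lower at an unadjusted p under 0.05, against a background of 4.9% and 5.82% of all genes tested. Stx1a, the conventional syntaxin, was at 14.2, 14.6 and 14.4 TPM in Cre/+ libraries and 18.8, 16.8 and 18.8 TPM in +/+ libraries. All 3 Cre/+ values lay below all 3 +/+ values, with a log2 difference of -0.31 (SE 0.108, limma adjusted p = 0.39). Snap47, a widely expressed relative of SNAP-25, was at 132, 129.8 and 121 TPM in Cre/+ and at 147, 144 and 148 TPM in +/+ libraries, again without overlap (log2 difference -0.20, SE 0.074, adjusted p = 0.404). Syp was at 1311, 1335 and 1332 TPM in Cre/+ and at 1521, 1550.5 and 1437 TPM in +/+ libraries, also without overlap (log2 difference -0.18, SE 0.075, adjusted p = 0.424). Sypl, a synaptophysin relative found outside neurons as well, was on the higher side, with 26.6, 27.8 and 30.6 TPM in Cre/+ against 24.2, 24.2 and 22.4 TPM in +/+ libraries (log2 difference 0.26, SE 0.110, adjusted p = 0.431). Counting only whether the 3 libraries of each genotype overlapped, 5 genes lay higher in Cre/+ (Syt1, Stx3, Cplx4, Sypl and Erc2) and 7 lay lower (Snap47, Syp, Syt7, Stx1a, Vamp2, Cplx3 and Napa). Over all genes tested, 11.9% lay higher and 10.3% lower without overlap. The median log2 fold change of the 35 genes was 0.02, with 15 of 35 below 0, and that of all genes tested was 0.001, with 49.6% below 0. It was -0.024 with 21 of 35 below 0 without Cre/+ replicate 3, -0.013 without +/+ replicate 2, 0.003 without Cre/+ replicate 2 and 0.052 without Cre/+ replicate 1, so that its sign rests on single libraries. The count of 4 genes at an unadjusted p under 0.05 was 11 without Cre/Cre replicate 1 and 7 without Cre/Cre replicate 3, which enter through the shared spread, and 2 without +/+ replicate 2, 2 without Cre/+ replicate 2 and 1 without Cre/+ replicate 3. The share of all genes at that limit moved as well, from 10.7% to 16.4%, 12.4%, 7.7%, 7.61% and 7.03% in the same order. The 5 blood markers summed to 92.5 to 105 TPM in Cre/+ and 150.5 to 182 TPM in +/+ libraries, and their part in this comparison was not tested.

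In Cre/Cre against +/+ retinas, 0 of 35 genes were higher and 2 were lower at an unadjusted p under 0.05, against a background of 1.58% and 5.39%. Stx1a was at 13.4, 15.2 and 16.8 TPM in Cre/Cre libraries, with a log2 difference of -0.25 (SE 0.108, limma adjusted p = 0.679). Its highest Cre/Cre value, 16.81 TPM, all but met the lowest +/+ value of 16.83 TPM. Rab3a was at 360, 426 and 383 TPM in Cre/Cre and at 412, 470.5 and 469 TPM in +/+ libraries, and the genotypes overlapped (log2 difference -0.21, SE 0.081, adjusted p = 0.656). Without overlap, 0 genes lay higher and 2 lay lower (Snap47 and Stx1a), where the background was 2.7% and 8.05%. The median log2 fold change of the 35 genes was -0.064, with 28 of 35 below 0, beside -0.024 for all genes tested, of which 57.7% were below 0. Without Cre/Cre replicate 1 it was -0.004 with 19 of 35 below 0, beside 0.024 for all genes (43.8% below 0). At an unadjusted p under 0.05, 2 genes were then higher and 0 lower, against 9.47% of all genes in both directions together. Stx1a then had a log2 difference of -0.17 (limma adjusted p = 0.596) and Rab3a of -0.15 (limma adjusted p = 0.52). The count of 2 genes was 5 without Cre/Cre replicate 3, 1 without +/+ replicate 1, 1 without +/+ replicate 2 and 0 without +/+ replicate 3, beside 7.8%, 7.03%, 4.97% and 5.12% of all genes in that order, against 6.97% with all libraries. Without Cre/Cre replicate 3 the median was -0.107. The ganglion cell marker sums, lowest in Cre/Cre libraries, move with this comparison, and their part in it was not tested.

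In Cre/Cre against Cre/+ retinas, 0 of 35 genes were higher and 3 were lower at an unadjusted p under 0.05, against a background of 2.38% and 4.2%. Syt4, an atypical synaptotagmin that does not act as a fast calcium sensor, was at 98.9, 132 and 126 TPM in Cre/Cre and at 136, 144 and 154 TPM in Cre/+ libraries (log2 difference -0.29, SE 0.111, limma adjusted p = 0.74). Stx3 was at 527, 615 and 672 TPM in Cre/Cre and at 687, 712 and 689 TPM in Cre/+ libraries (log2 difference -0.21, SE 0.082, adjusted p = 0.74). Unc13c was at 29.6, 31.7 and 29.7 TPM in Cre/Cre and at 31.8, 34.5 and 38.9 TPM in Cre/+ libraries (log2 difference -0.20, SE 0.094, adjusted p = 0.74). None of these 3 genes overlapped between the genotypes. In all, 0 genes lay higher and 6 lay lower without overlap (these 3 with Snap25, Syn2 and Erc2), where the background was 4.76% and 7.23%. The median log2 fold change of the 35 genes was -0.078, with 29 of 35 below 0, beside -0.03 for all genes tested, of which 59.2% were below 0. Without Cre/Cre replicate 1 it was 0.018, with 15 of 35 below 0, and that of all genes was 0.017, with 44.0% below 0. Without that library Syt4 had a log2 difference of -0.16, Stx3 of -0.11 and Unc13c of -0.18 (limma adjusted p = 0.964 for each). At an unadjusted p under 0.05, 1 gene was then higher and 0 were lower, against 4.97% of all genes in both directions together. The count of 3 genes was 8 without Cre/Cre replicate 3, 1 without Cre/+ replicate 2 and 1 without Cre/+ replicate 3, beside 12.5%, 4.26% and 4.36% of all genes in that order, against 6.58% with all libraries. The median was -0.121 without Cre/Cre replicate 3 and -0.043 without Cre/+ replicate 3. The Cre/Cre libraries lay below the Cre/+ libraries without overlap in the summed bipolar markers (1206.5 to 1442 TPM against 1505 to 1581 TPM), horizontal cell markers (89.6 to 109 TPM against 112.5 to 117 TPM) and ganglion cell markers, and above them in blood markers (185 to 300.5 TPM against 92.5 to 105 TPM). The part of these in the comparison was not tested.

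**Figure D4:**
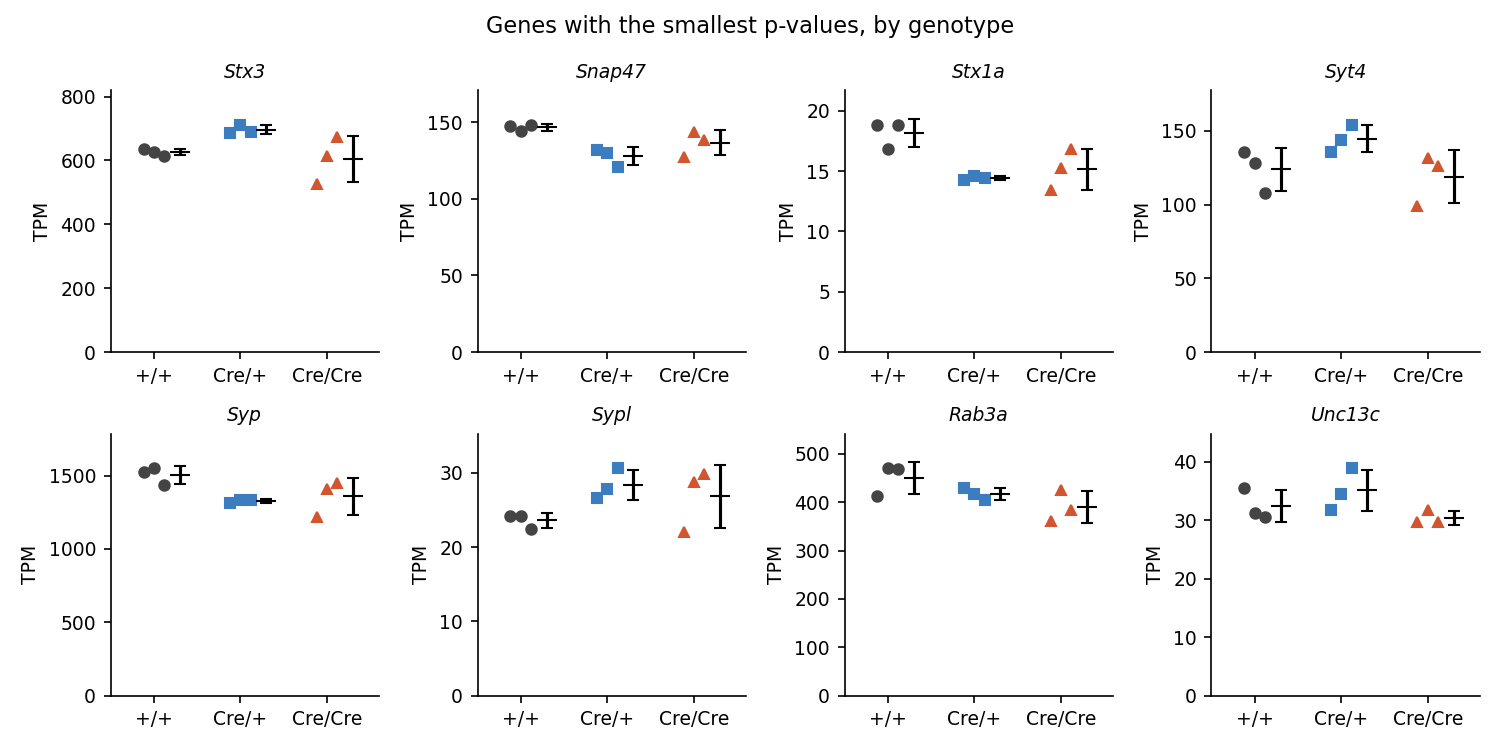
TPM of the 8 genes with an unadjusted p under 0.05 in at least 1 comparison, with 1 point for each library and mean ± SD beside them (n = 3; each axis starts at 0). Stx1a has its 3 highest values in +/+ retinas (16.8 to 18.8 TPM), and the Cre/Cre replicate 1 library is the lowest Cre/Cre value in all 8 genes.

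The ratio of 2 genes within a library does not depend on how the library was scaled. The ratio of Stx3 to Stx1a was 33.8, 37.2 and 32.7 in +/+ libraries, 48.2, 48.9 and 47.9 in Cre/+ libraries and 39.3, 40.4 and 40.0 in Cre/Cre libraries. No library of a genotype overlapped with another genotype, and the order was Cre/+ above Cre/Cre above +/+, which does not follow the number of knock-in alleles. Cre/Cre replicate 1 lay with the other Cre/Cre libraries in this ratio. The measure was not singular, because of the 595 ratios that the 35 genes can form, 40.0% did not overlap between Cre/+ and +/+, 14.8% between Cre/Cre and +/+, and 23.2% between Cre/Cre and Cre/+. The share of Cplx3 and Cplx4 in complexin TPM averaged 79.9% ± 0.680 (+/+), 81.2% ± 0.915 (Cre/+) and 80.4% ± 0.794 (Cre/Cre; SD, n = 3 each), with overlap in all 3 comparisons. Within the ribbon pair, the ratio of Cplx4 to Cplx3 averaged 2.82 ± 0.0682 (+/+), 3.24 ± 0.0368 (Cre/+) and 3.04 ± 0.381 (Cre/Cre; SD, n = 3 each), with Cre/+ above +/+ in every library. The sum of the ribbon-type isoforms over that of the conventional isoforms was 3.52 to 3.88 in +/+, 3.88 to 4.28 in Cre/+ and 3.61 to 4.03 in Cre/Cre libraries. The lowest Cre/+ value of this ratio was 3.879 and the highest +/+ value was 3.878, so that these genotypes met without overlap, and by coverage they overlapped. No test was made of these ratios.

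Further genes of the presynaptic terminal were read from a list of 53, of which 52 were tested and 0 passed the adjusted p with limma in any of the 3 comparisons. Among the most abundant were Slc17a7, the vesicular glutamate transporter of photoreceptors and bipolar cells (1477 ± 18.8 TPM in +/+; SD, n = 3), the endocytic genes Dnm1 (521 ± 36.5 TPM) and Sh3gl2 (338 ± 13.7 TPM), and the vesicle chaperone gene Dnajc5 (285 ± 6.72 TPM). At an unadjusted p under 0.05, 0 were higher and 2 lower in Cre/+ against +/+, where the background was 4.9% and 5.82% of all genes. In Cre/Cre against +/+, 0 were higher and 5 lower (background 1.58% and 5.39%). In Cre/Cre against Cre/+, 0 were higher and 3 lower (background 2.38% and 4.2%). Without Cre/Cre replicate 1, 0 were higher and 3 lower in Cre/Cre against +/+, and 0 genes were at that limit in Cre/Cre against Cre/+. The background in both directions together was then 9.47% and 4.97%. Ppfia3, a liprin of the active zone, was at 55.2, 53.4 and 59.6 TPM in +/+, 47.9, 47.1 and 49.0 TPM in Cre/+ and 48.1, 47.7 and 49.9 TPM in Cre/Cre libraries. It lay below +/+ without overlap in both knock-in genotypes, with log2 differences of -0.22 (SE 0.075, limma adjusted p = 0.39) and -0.20 (SE 0.075, adjusted p = 0.648). Slc32a1, the vesicular transporter of GABA and glycine in amacrine and horizontal cells, was at 117, 119 and 123 TPM in +/+, 106.5, 107 and 104 TPM in Cre/+ and 107, 108 and 106 TPM in Cre/Cre libraries. It too lay below +/+ without overlap in both (log2 difference -0.17, SE 0.068, limma adjusted p = 0.405 for Cre/+; -0.16, SE 0.068, adjusted p = 0.668 for Cre/Cre). Both comparisons use the same +/+ libraries. Vamp3, a SNARE of constitutive traffic, was next in Cre/+ (log2 difference 0.17, SE 0.079, adjusted p = 0.467). Rims4, of the RIM family, had among the smallest p-values in Cre/Cre against +/+ (log2 difference -0.36, SE 0.134, limma adjusted p = 0.656).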

How the data were processed

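Gene tables of 9 libraries, 1 for each mouse, were used, and genotypes came from the labels. The authors selected poly(A) RNA, prepared strand-specific libraries, sequenced pairs of 150 bases, trimmed with Trimmomatic, aligned to mm10 with HISAT2 and quantified with StringTie. Versions and annotation are not given in the sources used here. The deposited TPM sum to the same total in each library, FPKM as deposited is per length and depth before that scaling, and the deposited coverage is a mean signal per base. The tables hold no counts, so that counting error per gene is unknown, and the limma test planned for TPM was used. TPM were summed by gene name, genes averaging 1 TPM or more were kept, and log2(TPM + 1) was fitted with limma 3.58.1 (R 4.3.3; trend and robust prior) with all 9 libraries in 1 model. P-values were adjusted over all genes tested (Benjamini-Hochberg; limit 0.05). The added 1 shrinks the fold changes of low genes. Median-ratio scaling, FPKM, a pseudocount of 0.1, no filter, no robust prior, Xist as covariate, a replicate block, only the genotypes compared, and each library left out were tried. The script was tested on simulated data.

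The members and lists were chosen with earlier results of these data known. Named genes were all 35 members and, of the further presynaptic genes, the 5 with the highest TPM and the 3 with the smallest p in each comparison with +/+, except that some of these are not reported here, and Unc13b was added as a paralog of members after its values were seen. Marker lists of horizontal cells, Mueller glia, lens, pigment epithelium, blood and oligodendrocytes were summed as well. Lens markers reached 1050 TPM in Cre/Cre replicate 2 against at most 233 TPM elsewhere. Horizontal cell markers were 89.6 to 118 TPM, Mueller glia markers 4387 to 5381.5 TPM, pigment epithelium markers 15.1 to 72.5 TPM and oligodendrocyte markers 32.6 to 39.0 TPM over the 9 libraries.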

Additional observations from a re-analysis of the deposited data

How the results depend on the processing

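With 3 mice a genotype and no counts, differences within the 1.5-fold intervals were not resolved. Under all 17 alternatives, 0 of the 35 genes passed the adjusted p in any comparison. The 9 named gene differences kept their direction in all 153 refits, and 0 passed. Much of this was fixed in advance. No filter, no robust prior, a replicate block and only the genotypes compared leave the estimate as it is. So does leaving out a library of the genotype that is not compared. The differences were also named for their small p in these same data, so the count does not measure how stable they are. The number of genes at an unadjusted p under 0.05 moved more. For Cre/+ against +/+ it was 4, and 2 with Xist as a covariate, 11 with only the genotypes compared, 10 with median-ratio scaling (6 higher and 4 lower, against 1 and 3), 2 with FPKM (0 higher and 2 lower), and 1 to 11 with each library left out. For Cre/Cre against +/+ it was 2, and 1 with Xist as a covariate, 1 with only the genotypes compared, 4 with median-ratio scaling (1 higher and 3 lower, against 0 and 2), and 0 to 5 with each library left out. For Cre/Cre against Cre/+ it was 3, with median-ratio scaling 4 (1 higher and 3 lower), and 1 to 8 with each library left out, and the median log2 fold change of the set was -0.121 to 0.018. The share of all genes tested at that p moved as well. It was 10.7% for Cre/+ against +/+, and 9.99%, 16.9%, 15.9% and 8.41% under the named settings in the same order. Each library left out gave 5.15% to 16.4%. The share was 6.97% for Cre/Cre against +/+, then 5.19%, 5.61% and 8.38%, and 4.97% to 9.47% with each library left out. Cre/Cre against Cre/+ had 6.58%, 8.45% with median-ratio scaling, and 4.26% to 12.5% with each library left out. With Xist as a covariate in Cre/+ against +/+, Stx1a and Sypl stayed at an unadjusted limma p under 0.05. Snap47 and Syp, of which Syp lies on the X chromosome, were then each at an unadjusted limma p of 0.053. Median-ratio scaling moved the median of all genes tested from -0.024 to 0.003 in Cre/Cre against +/+. The cause of these shifts was not tested.

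Coverage in place of TPM, chosen after seeing the data for these and the family shares, gave Cplx3 and Cplx4 a share of 85.4% in +/+, 86.4% in Cre/+ and 85.7% in Cre/Cre, and the ratio of Stx3 to Stx1a was 13.5, 18.6 and 15.2. With a replicate block, 4, 2 and 2 genes were at an unadjusted p under 0.05 in the 3 comparisons, and 0 passed the adjusted p. No sign was seen that replicate numbers pair the mice. Deviations of same-numbered libraries correlated at -0.116 to 0.128 (9 pairs), and the best match in another genotype had the same number in 5 of 18 cases. With 3 libraries a genotype, a weak pairing would not be seen this way.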
